A study of Mus musculus with 16 samples.

Results

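Interferon-stimulated genes are the genes a cell switches on when it senses interferon, and 43 of them were followed here in sorted cells of the mouse olfactory mucosa. They were chosen by gene symbol, with the brightest probe set taken for a gene with several, and 42 of the 43 were measured among 19505 genes. No measured member had a second probe set. Ifi44 was not analysed here.

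Every mouse carried the S100a5-tauGFP reporter, in which GFP follows S100a5, a calcium-binding protein gene of olfactory sensory neurons that rises with their activity. RNA from GFP+ and GFP- cells sorted from olfactory mucosa was hybridised to Clariom S arrays, with 1 array per fraction of a pool of 3 mice. Each of the 4 groups had 4 arrays: GFP+ cells after octanol, GFP- cells after octanol, GFP+ cells after vehicle and GFP- cells after vehicle. The 24 mice, of both sexes and 7 to 12 weeks old, stayed singly in clean air chambers (3.1 L/min) for 40 h, and from 26 h on received 10 s of octanol, an alcohol odorant, or of filtered air (vehicle) every 20 min. Whether a gene is expressed mainly in the GFP+ cells, mainly in the rest, or differs with octanol is what the comparisons address.

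Type I and type III interferons act through receptors whose kinases switch on a transcription factor complex that holds STAT2 and IRF9. This complex binds the interferon-stimulated response element (ISRE), while interferon gamma acts at the gamma-activated site (GAS). The products block virus entry, degrade or hide viral RNA, sense foreign nucleic acid and load antigen on MHC class I. Many of these genes also have a resting level that differs between cell types, and myeloid cells carry several of them without infection.

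Promoter windows of 300 bases, with the start site at base 251, were read from RefSeq (GRCm38.p6) for 33 of the 42 measured members. Those of 4 are shown because they span the responses below: Ifit1 was higher in GFP+ cells, Ifitm3 and Irgm1 were lower, and Isg15 passed the threshold in neither direction. Capitals mark the ISRE core, which reads GAAA, 2 bases of any kind and GAAA, on either strand. They are written on the gene's own strand, so in Ifit1 the core reads as its reverse complement.
Ifit1 (chr19:34640639-34640938, + strand): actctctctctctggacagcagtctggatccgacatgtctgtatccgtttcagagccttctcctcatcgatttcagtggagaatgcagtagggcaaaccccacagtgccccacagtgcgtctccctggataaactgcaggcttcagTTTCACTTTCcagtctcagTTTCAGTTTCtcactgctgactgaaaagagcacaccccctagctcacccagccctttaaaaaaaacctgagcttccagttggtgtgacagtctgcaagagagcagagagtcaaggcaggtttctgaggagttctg
Ifitm3 (chr7:141010695-141010994, - strand): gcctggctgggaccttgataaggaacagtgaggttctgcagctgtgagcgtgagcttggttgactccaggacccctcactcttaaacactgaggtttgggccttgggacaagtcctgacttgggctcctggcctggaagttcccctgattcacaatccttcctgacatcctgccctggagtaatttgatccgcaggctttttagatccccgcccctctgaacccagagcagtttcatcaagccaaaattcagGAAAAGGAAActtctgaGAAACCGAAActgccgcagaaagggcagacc
Irgm1 (chr11:48871371-48871670, - strand): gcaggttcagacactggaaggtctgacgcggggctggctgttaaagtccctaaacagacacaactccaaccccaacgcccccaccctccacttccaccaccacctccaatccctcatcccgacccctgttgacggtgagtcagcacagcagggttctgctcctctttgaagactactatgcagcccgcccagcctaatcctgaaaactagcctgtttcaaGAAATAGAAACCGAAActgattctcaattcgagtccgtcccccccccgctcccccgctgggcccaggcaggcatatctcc
Isg15 (chr4:156200769-156201068, - strand): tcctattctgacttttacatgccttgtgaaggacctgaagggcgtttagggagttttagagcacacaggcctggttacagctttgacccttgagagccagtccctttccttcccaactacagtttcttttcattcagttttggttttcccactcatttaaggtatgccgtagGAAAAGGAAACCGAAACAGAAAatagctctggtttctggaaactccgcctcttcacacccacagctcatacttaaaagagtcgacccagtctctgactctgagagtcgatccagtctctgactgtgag
The matches began at bases 147 and 166 in Ifit1, 253 and 270 in Ifitm3, and at 221 and 227, overlapping, in Irgm1. Isg15 held 3 overlapping matches from bases 173, 179 and 185. Among the 33 members with a window, 17 (51.5%) held the core, against 1079 of 27025 genes with a window (3.99%). The GAS motif TTCNNNGAA, also searched on both strands, lay in 12 of the 33 members (36.4%), against 9.55% of all genes with a window. Of 20 members lower in GFP+ cells after vehicle that had a window, 8 held the ISRE core and 9 the GAS motif. Both members of the higher group with a window held the ISRE core and neither held the GAS motif, and of 11 that passed in neither direction 7 held the ISRE core. A match describes these letters and is not evidence that a factor binds there.

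Values are log2 signals, so a difference of 1 is a 2-fold change. The background level of 6.32 log2 was set so that 95% of 319 vomeronasal genes, whose cells lie outside this tissue, had means under it. S100a5, on which the sort rests, lay at 16.77 to 16.86 log2 in octanol GFP+ arrays against 15.78 to 16.09 in octanol GFP- arrays, and at 16.75 to 17.02 in vehicle GFP+ arrays against 15.79 to 16.31 in vehicle GFP- arrays. All 10 mature sensory neuron markers, Omp among them, were above background in every array of both fractions. In RNA from many cells, fewer cells of a type and less RNA per cell cannot be told apart. Arrays of 1 group correlated at 0.990 to 0.995. The precision of a difference rests on their number, 4 a group, and on the spread of each gene between arrays. Each array is a separate pool of mice within its group.

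More interferon-stimulated genes were lower than higher in GFP+ cells. After octanol, 20 of 42 members (47.6%) were lower in GFP+ than in GFP- cells at an adjusted p under 0.05 (limma, Benjamini-Hochberg over all genes), while 13.2% of all genes were. Another 3 members (7.14%) were higher, against 16.7% of all genes. After vehicle, 22 members (52.4%) were lower and 3 were higher, where 13.5% and 14.7% of all genes were. The median member differed by -0.50 log2 after octanol and by -0.56 after vehicle, and the median gene by 0.14 and 0.13. The 2 exposures were measured in different mice: 20 members were lower after both, Ifit1 and Mx2 were higher after both, and 16 passed after neither. Every GFP+ array lay below every GFP- array for 18 members after octanol (12.4% of all genes) and 21 after vehicle (13.2%), and above it for 5 (15.7% of all genes) and 3 (14.6%). All members called lower after vehicle were lower in 4 of 4 pools, and after octanol 19 of 20 were, Oas3 being the exception. The calls were made from these same pools, so this agreement of sign largely follows from the calls and adds no separate support.

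**Figure D1:**
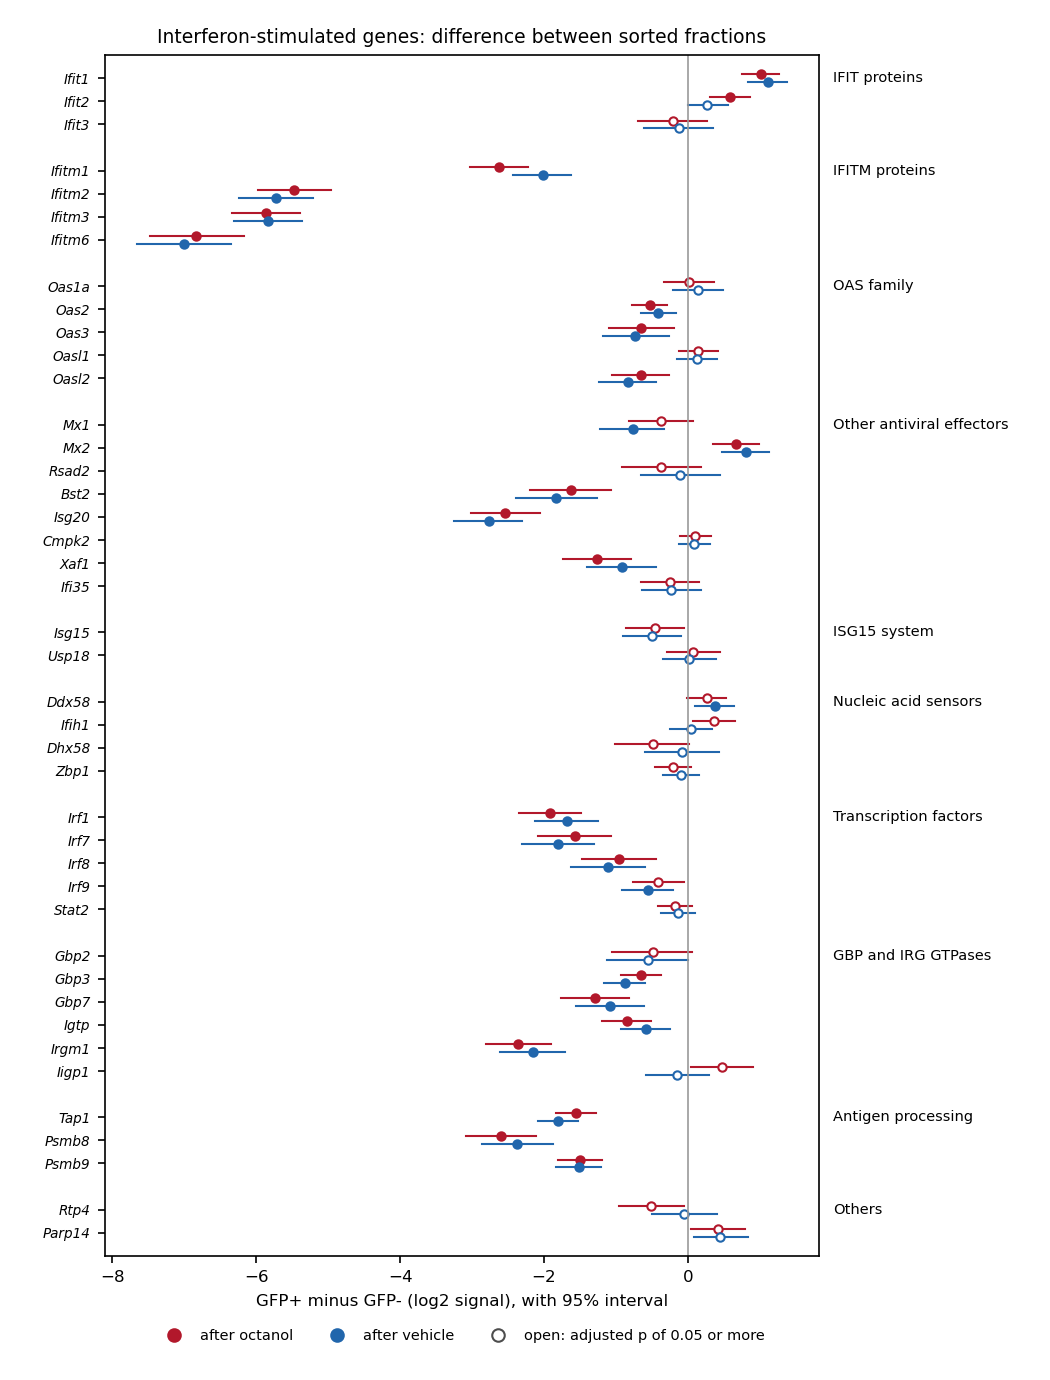
Difference in log2 signal between GFP+ and GFP- cells (x axis, with 95% interval) for each of 42 interferon-stimulated genes, grouped by role, after octanol (red) and after vehicle (blue); filled points have an adjusted p under 0.05. The IFITM genes Ifitm6, Ifitm3 and Ifitm2 lie between -5.47 and -7.00, and Ifit1 lies at 1.01 after octanol and 1.11 after vehicle.

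The signs depend in part on how arrays are set to one scale. The median gene was not at 0 under any scaling: it shifted to 0.41 after octanol and 0.46 after vehicle when each array was centred on its median, and to -0.36 and -0.17 when centred on odorant receptors. On the signals as deposited, 13% (octanol) and 12% (vehicle) of called members were higher, and 55.9% and 52.2% of all called genes. With median centring, 9 members were higher and 17 lower after either exposure, so 34.6% of called members were higher, while the share over all called genes was 84.9% after octanol and 86.5% after vehicle. With receptor centring, 1 member was higher and 33 lower after octanol, where 536 of all genes were higher and 8740 lower. After vehicle 1 member was higher and 26 lower with that centring, and 630 of all genes were higher and 4387 lower. The members' counts thus moved the same way as those of all genes under both centrings. Without octanol pools 3 and 4, a setting chosen after seeing the data that leaves fewer arrays, 17 members were lower and 2 higher after octanol, and all genes lower and higher numbered 1962 and 1585, against 2569 and 3257 with all pools. Ifitm1, Ifitm2, Ifitm3, Ifitm6, Isg20, Irf1, Irf7, Bst2, Gbp7, Irgm1, Tap1, Psmb8, Psmb9 and Xaf1 (14 members) were called lower, and Ifit1 higher, after both exposures under every scaling, filter and left-out pool that was run. These settings reuse the same arrays, and the share of all genes that held likewise is not given here.

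Fewer members were detectable in GFP+ cells. The mean lay above background for 24 of 42 members in octanol GFP+ arrays against 31 in octanol GFP- arrays, and for 25 in vehicle GFP+ arrays against 31 in vehicle GFP- arrays. Of all genes, 65% and 64.3% were above it in the octanol and vehicle GFP+ arrays, against 66.8% and 66.5% in the GFP- arrays of the same exposures. Oas1a, Oas2, Oas3, Oasl1, Dhx58, Iigp1 and Zbp1 (7 members) were above background in none of the 16 arrays, and Isg15, Gbp2, Gbp3 and Igtp in 1 array each. A filter of 4 or more arrays above background kept 31 members.

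The IFITM genes, which encode small membrane proteins that stop viruses from entering the cell, showed the widest gap, and all 4 were lower in GFP+ cells after both exposures. Ifitm6, a family member known from mouse macrophages, stood at 7.13, 7.03, 8.40 and 9.17 log2 in octanol GFP+ arrays, against 14.93, 14.58, 14.13 and 15.42 in octanol GFP- arrays. After vehicle it stood at 7.21, 6.78, 7.34 and 7.80 in GFP+ arrays, against 14.08, 13.92, 14.26 and 14.85 in GFP- arrays. The fractions were far apart without overlap, by -6.83 (SE 0.29, 114-fold, adjusted p = 1.84e-07) after octanol and by -7.00 (SE 0.29, 128-fold, adjusted p = 1.46e-07) after vehicle. Within octanol GFP+ arrays, replicates 3 and 4 were higher than the other 2.

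Ifitm3, the family member best known for holding back influenza virus, was at 5.76, 5.58, 6.41 and 6.62 log2 in octanol GFP+ arrays, of which 2 were above background, against 12.21, 11.41, 11.59 and 12.59 in octanol GFP- arrays. In vehicle GFP+ arrays it was at 6.45, 5.54, 5.86 and 6.30, with 1 above background, against 11.58, 11.55, 11.94 and 12.42 in vehicle GFP- arrays. It was therefore at least 46.4-fold lower after octanol (fitted difference -5.86, SE 0.21, adjusted p = 8.93e-08) and at least 45.9-fold lower after vehicle (-5.84, SE 0.21, adjusted p = 8.07e-08). This bound, used for other dim genes below, raises values under background to the background level in the fraction with the lower mean. It is taken on group means and leaves out the spread between arrays. The 2 ISRE cores of its promoter, shown above, lie just downstream of the start site.

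Ifitm2 had 8.28, 8.19, 9.65 and 9.43 log2 in octanol GFP+ arrays, against 14.48, 14.15, 14.29 and 14.52 in octanol GFP- arrays. Its vehicle GFP+ arrays had 8.58, 8.06, 8.36 and 8.65, against 13.97, 13.87, 14.13 and 14.57 in vehicle GFP- arrays. No array overlapped, and it was 44.3-fold lower after octanol (-5.47, SE 0.23, adjusted p = 1.84e-07) and 52.9-fold lower after vehicle (-5.72, SE 0.23, adjusted p = 1.23e-07). Ifitm1 was closer to its GFP- level, at 7.09, 7.01, 7.39 and 7.13 in octanol GFP+ arrays against 10.33, 9.49, 9.33 and 9.98 in octanol GFP- arrays. In vehicle GFP+ arrays it had 6.89, 7.09, 7.10 and 7.21, against 8.90, 9.15, 8.92 and 9.41 in vehicle GFP- arrays. Its differences were -2.63 (SE 0.18, adjusted p = 3.13e-06) after octanol and -2.02 (SE 0.18, adjusted p = 1.95e-05) after vehicle, again without overlap. The 4 genes are neighbours on chromosome 7.

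**Figure D2:**
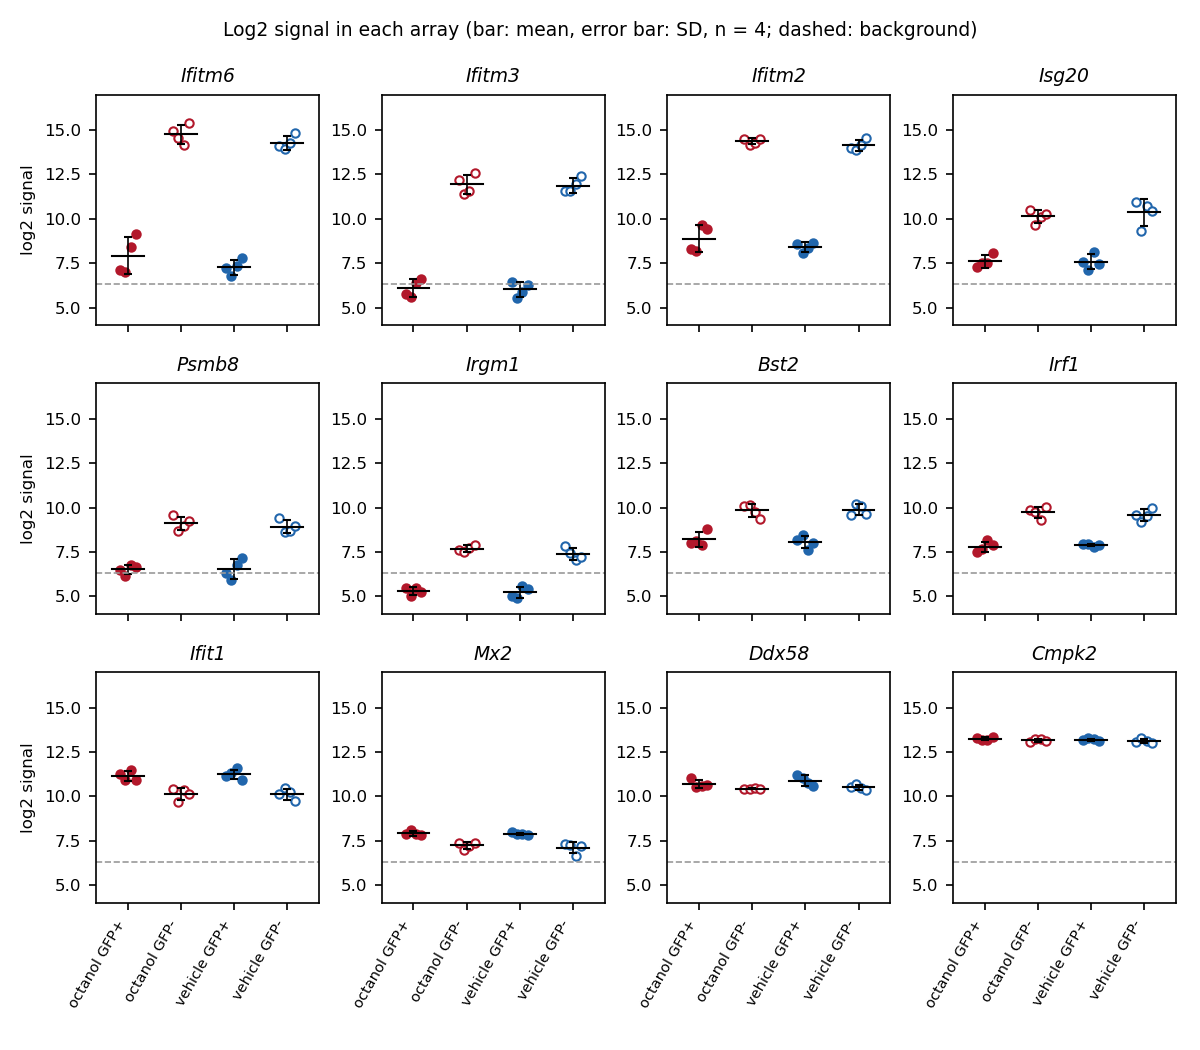
Log2 signal in each of the 16 arrays for 12 interferon-stimulated genes, with octanol GFP+ and GFP- arrays at the left of each x axis and vehicle GFP+ and GFP- arrays at the right; points are arrays, bars their means, error bars the SD (n = 4), and the dashed line is the background level of 6.32 log2. Ifitm6 lies between 6.78 and 9.17 in GFP+ arrays and between 13.92 and 15.42 in GFP- arrays, while Cmpk2 lies between 13.03 and 13.33 in all 16.

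Genes of antigen processing were lower as well, in all 3 members after both exposures (13.2% of all genes after octanol and 13.5% after vehicle). Psmb8, a catalytic subunit of the immunoproteasome, had 6.51, 6.17, 6.77 and 6.66 log2 in octanol GFP+ arrays, against 9.57, 8.68, 8.99 and 9.25 in octanol GFP- arrays. It had 6.30, 5.95, 6.76 and 7.18 in vehicle GFP+ arrays, against 9.44, 8.63, 8.68 and 8.95 in vehicle GFP- arrays. In GFP+ cells 3 octanol and 2 vehicle arrays exceeded background. Psmb8 was at least 5.91-fold lower after octanol (adjusted p = 1.25e-05) and at least 4.85-fold lower after vehicle (adjusted p = 2.49e-05). The groups did not overlap. Psmb9, a second immunoproteasome subunit, had 6.18, 5.80, 6.12 and 5.91 in octanol GFP+ arrays, against 7.79, 7.35, 7.29 and 7.59 in octanol GFP- arrays. It had 5.77, 5.98, 5.76 and 5.67 in vehicle GFP+ arrays, against 7.60, 7.04, 7.42 and 7.21 in vehicle GFP- arrays. No GFP+ array exceeded background, and Psmb9 was at least 2.27-fold lower after octanol (adjusted p = 2.46e-05) and at least 2-fold lower after vehicle (adjusted p = 2.24e-05).

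Tap1, a subunit of the transporter that carries peptides into the endoplasmic reticulum for MHC class I, stayed above background in every array. It measured 7.89, 7.85, 7.79 and 8.09 log2 in octanol GFP+ arrays, against 9.52, 9.29, 9.15 and 9.91 in octanol GFP- arrays. The vehicle GFP+ arrays gave 7.49, 7.64, 8.02 and 7.65, against 9.45, 9.25, 9.58 and 9.75 in vehicle GFP- arrays. Without overlap, it differed by -1.56 (SE 0.12, adjusted p = 8.38e-06) after octanol and by -1.81 (SE 0.12, adjusted p = 3.11e-06) after vehicle. Tap1 and Psmb9 lie head to head on chromosome 17, their promoter windows share 275 bases, and neither window holds an ISRE core or a GAS motif.

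Among the transcription factors, 3 of 5 were lower after octanol (13.2% of all genes) and 4 of 5 after vehicle (13.5%). Irf7, the factor that amplifies interferon production, had 5.14, 5.41, 4.75 and 5.43 log2 in octanol GFP+ arrays, all under background, against 7.03, 6.35, 6.54 and 7.10 in octanol GFP- arrays. It had 5.56, 5.67, 4.85 and 4.73 in vehicle GFP+ arrays, also under background, against 7.50, 6.59, 6.81 and 7.12 in vehicle GFP- arrays. It was at least 1.35-fold lower after octanol (adjusted p = 5.43e-04) and at least 1.61-fold lower after vehicle (adjusted p = 2.12e-04), with all 8 GFP- arrays above background. Irf1, a factor induced above all by interferon gamma, had 7.53, 7.65, 8.17 and 7.89 in octanol GFP+ arrays, against 9.84, 9.78, 9.30 and 10.01 in octanol GFP- arrays. Its vehicle GFP+ arrays had 7.95, 7.95, 7.79 and 7.92, against 9.59, 9.21, 9.55 and 9.98 in vehicle GFP- arrays. Irf1 was 3.78-fold lower after octanol (-1.92, SE 0.19, adjusted p = 4.68e-05) and 3.21-fold lower after vehicle (-1.68, SE 0.19, adjusted p = 1.19e-04), with no overlap.

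Irf8, needed for the development of myeloid cells, had 7.66, 6.24, 7.32 and 7.49 log2 in octanol GFP+ arrays, against 8.11, 8.09, 8.34 and 8.0 in octanol GFP- arrays. After vehicle it had 7.00, 7.27, 6.83 and 7.06 in GFP+ arrays, against 8.39, 7.78, 7.99 and 8.46 in GFP- arrays. With 3 of 4 octanol GFP+ arrays above background and no overlap, Irf8 was at least 1.92-fold lower after octanol (adjusted p = 0.0115) and 2.17-fold lower after vehicle (-1.11, SE 0.23, adjusted p = 0.00523). Without octanol pools 3 and 4 the octanol difference was -1.15 (adjusted p = 0.0525). Stat2, a subunit of the ISRE-binding complex, lay between 9.32 and 10.14 in all arrays and differed by -0.18 (adjusted p = 0.244) and -0.14 (adjusted p = 0.338). Irf9, its DNA-binding partner, differed by -0.41 (adjusted p = 0.0804) after octanol and was lower by -0.56 (adjusted p = 0.0248) after vehicle, a call kept in 6 of 12 alternative settings (adjusted p of up to 0.276).

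The GBP and IRG GTPases, which attack the compartments of intracellular pathogens, were lower in 4 of 6 members after each exposure. Of all genes, 13.2% were lower after octanol and 13.5% after vehicle. Irgm1, a regulator within the IRG family, had 5.46, 5.04, 5.49 and 5.27 log2 in octanol GFP+ arrays, none above background, against 7.59, 7.48, 7.73 and 7.92 in octanol GFP- arrays. It had 5.05, 4.90, 5.59 and 5.42 in vehicle GFP+ arrays, again none above background, against 7.86, 7.43, 7.07 and 7.24 in vehicle GFP- arrays. It was at least 2.57-fold lower after octanol (fitted difference -2.36, adjusted p = 1.30e-05) and at least 2.12-fold lower after vehicle (-2.16, adjusted p = 2.55e-05).

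Gbp7 was above background throughout, at 6.76, 7.08, 7.20 and 6.47 log2 in octanol GFP+ arrays against 7.98, 8.04, 7.95 and 8.70 in octanol GFP- arrays. Its vehicle GFP+ arrays had 6.93, 6.99, 6.91 and 6.86, against 7.80, 8.35, 8.15 and 7.73 in vehicle GFP- arrays. The difference was -1.29 (adjusted p = 0.00131) after octanol and -1.09 (adjusted p = 0.00386) after vehicle, without overlap. Gbp3 had 5.38, 5.37, 5.07 and 5.05 in octanol GFP+ arrays against 5.84, 6.18, 5.69 and 5.76 in octanol GFP- arrays. After vehicle it had 5.05, 5.13, 4.77 and 5.09 in GFP+ arrays against 6.37, 5.81, 5.63 and 5.77 in GFP- arrays. All but 1 of these Gbp3 values lie under background, so no fold is given for its calls (adjusted p = 0.00373 and 5.18e-04), and Igtp, also called lower, is in the same position. Gbp2 (-0.49 and -0.56) and Iigp1 passed after neither exposure.

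Other antiviral effectors went both ways. Isg20, a nuclease that degrades single-stranded RNA, had 7.29, 7.49, 7.54 and 8.10 log2 in octanol GFP+ arrays, against 10.51, 9.65, 10.11 and 10.30 in octanol GFP- arrays. It had 7.60, 7.13, 8.15 and 7.48 in vehicle GFP+ arrays, against 10.96, 9.30, 10.74 and 10.46 in vehicle GFP- arrays. Isg20 was 5.81-fold lower after octanol (-2.54, SE 0.21, adjusted p = 1.22e-05) and 6.84-fold lower after vehicle (-2.77, SE 0.21, adjusted p = 6.73e-06), with no overlap. Bst2 encodes tetherin, which holds budding virus at the cell surface, and had 8.01, 8.13, 7.89 and 8.80 in octanol GFP+ arrays against 10.11, 10.14, 9.77 and 9.36 in octanol GFP- arrays. It had 8.16, 8.46, 7.64 and 7.99 in vehicle GFP+ arrays against 9.60, 10.23, 10.12 and 9.63 in vehicle GFP- arrays. Bst2 was 3.1-fold lower after octanol (-1.63, SE 0.25, adjusted p = 8.52e-04) and 3.56-fold lower after vehicle (-1.83, SE 0.25, adjusted p = 3.94e-04), and no arrays overlapped.

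Xaf1, a gene that promotes cell death, had 5.31, 5.39, 5.33 and 5.98 log2 in octanol GFP+ arrays, against 6.77, 6.86, 6.75 and 6.69 in octanol GFP- arrays. It had 5.79, 6.18, 5.81 and 5.32 in vehicle GFP+ arrays, against 7.33, 6.53, 6.30 and 6.63 in vehicle GFP- arrays. Xaf1 lay under background in GFP+ cells and was at least 1.36-fold lower after octanol (adjusted p = 0.00146) and at least 1.3-fold lower after vehicle (adjusted p = 0.00927). Mx1, a GTPase that blocks influenza virus, was above background in 6 arrays, differed by -0.38 after octanol (adjusted p = 0.179) and was lower by -0.77 after vehicle (adjusted p = 0.0169), at least 1.1-fold. Rsad2, which encodes viperin, differed by -0.37 (adjusted p = 0.278) and -0.11 (adjusted p = 0.767), and Ifi35 by -0.25 and -0.23 (adjusted p = 0.333 and 0.368).

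The higher genes were Ifit1 and Mx2 after both exposures, Ifit2 after octanol and Ddx58 after vehicle. Ifit1, which binds viral RNA that lacks the cap of the host, had 11.27, 10.90, 11.50 and 10.93 log2 in octanol GFP+ arrays, against 10.41, 9.66, 10.37 and 10.11 in octanol GFP- arrays. Its vehicle GFP+ arrays had 11.12, 11.30, 11.58 and 10.94, against 10.12, 10.46, 10.23 and 9.72 in vehicle GFP- arrays. Every GFP+ array was above every GFP- array, and Ifit1 was 2.01-fold higher after octanol (1.01, SE 0.12, adjusted p = 1.34e-04) and 2.15-fold higher after vehicle (1.11, SE 0.12, adjusted p = 6.98e-05).

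Ifit2, a partner of Ifit1, had 10.86, 11.33, 10.94 and 10.75 log2 in octanol GFP+ arrays, against 10.14, 10.78, 10.35 and 10.29 in octanol GFP- arrays. It had 10.84, 10.79, 11.26 and 10.84 in vehicle GFP+ arrays, against 10.72, 10.77, 10.53 and 10.61 in vehicle GFP- arrays. The octanol arrays overlapped by a little and the vehicle ones did not, with differences of 0.58 (SE 0.12, adjusted p = 0.00622) after octanol and 0.27 (SE 0.12, adjusted p = 0.128) after vehicle. The test of the difference between these 2 effects gave 0.31 (SE 0.18, adjusted p = 0.998), with receptor centring the values were 0.08 and -0.03, and with median centring Ifit2 passed after vehicle as well (0.61, adjusted p = 0.00204). Without octanol pools 3 and 4 the octanol difference was 0.64 (adjusted p = 0.0586). Ifit3, their neighbour on chromosome 19, ranged from 6.34 to 7.37 and differed by -0.21 (adjusted p = 0.482) and -0.13 (adjusted p = 0.673). Ifit3 has a near-identical copy, Ifit3b, and how far the probes tell them apart was not tested.

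Mx2, a dynamin-like GTPase related to Mx1, had 7.90, 8.10, 7.87 and 7.80 log2 in octanol GFP+ arrays, against 7.37, 6.99, 7.23 and 7.4 in octanol GFP- arrays. It had 7.98, 7.91, 7.89 and 7.83 in vehicle GFP+ arrays, against 7.32, 7.28, 6.65 and 7.18 in vehicle GFP- arrays. The groups did not overlap, with differences of 0.67 (SE 0.15, adjusted p = 0.00677) after octanol and 0.80 (SE 0.15, adjusted p = 0.00256) after vehicle. With receptor centring Mx2 kept its sign at 0.17 (adjusted p = 0.41) and 0.50 (adjusted p = 0.0577).

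Of the nucleic acid sensors, none was lower. Ddx58 encodes RIG-I, the cytoplasmic sensor of viral RNA, and had 11.02, 10.51, 10.59 and 10.63 log2 in octanol GFP+ arrays against 10.41, 10.42, 10.49 and 10.40 in octanol GFP- arrays. It had 11.19, 11.06, 10.73 and 10.56 in vehicle GFP+ arrays against 10.53, 10.70, 10.47 and 10.35 in vehicle GFP- arrays. Ddx58 differed by 0.26 (adjusted p = 0.138) after octanol, where the arrays did not overlap, and was higher by 0.37 (adjusted p = 0.045) after vehicle, where they did. The vehicle call was lost when any 1 vehicle pool was left out (adjusted p of 0.0701 to 0.175), and with receptor centring Ddx58 stood at -0.24 and 0.07, while with median centring it passed after both exposures (0.53 and 0.71). Ifih1, which encodes the related sensor MDA5, had 9.71, 9.41, 9.34 and 9.67 in octanol GFP+ arrays against 9.09, 9.16, 9.01 and 9.41 in octanol GFP- arrays. It had 9.19, 9.27, 9.44 and 8.99 in vehicle GFP+ arrays against 9.41, 9.03, 9.06 and 9.24 in vehicle GFP- arrays, and differed by 0.36 (adjusted p = 0.0598) and 0.04 (adjusted p = 0.854). After octanol Ifih1 passed with the pool as a random block (0.36, adjusted p = 0.0311), with the filter on dim genes (adjusted p = 0.0418), with quantile normalization (0.47, adjusted p = 0.0154) and with median centring (0.64, adjusted p = 0.00225), while receptor centring gave -0.13. After vehicle it passed with median centring (0.37, adjusted p = 0.0229), and receptor centring gave -0.26. Dhx58 and Zbp1 were not above background in any array.

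The OAS genes make short adenylate chains that switch on RNase L, and most were too dim to compare. Oasl2, an OAS-like gene above background in all arrays, had 7.44, 6.77, 7.30 and 7.57 log2 in octanol GFP+ arrays, against 8.79, 7.13, 7.65 and 8.12 in octanol GFP- arrays. It had 7.78, 7.52, 6.70 and 7.16 in vehicle GFP+ arrays, against 8.27, 8.49, 7.90 and 7.86 in vehicle GFP- arrays. Oasl2 was lower by -0.65 (SE 0.18, adjusted p = 0.0208) after octanol, with overlap, and by -0.84 (SE 0.18, adjusted p = 0.00596) after vehicle, without. The call was kept in 6 of 13 alternative settings for octanol and in 10 of 12 for vehicle. Oas2 and Oas3, which encode synthetases themselves, passed the test too, but under background in every array. Oas2 had 4.52, 4.23, 4.30 and 4.32 in octanol GFP+ arrays against 5.03, 4.86, 4.62 and 4.99 in octanol GFP- arrays. After vehicle it had 4.38, 4.20, 4.23 and 4.23 in GFP+ arrays against 4.91, 4.44, 4.46 and 4.85 in GFP- arrays. Its groups did not overlap. Oas3 had 3.95, 3.49, 4.11 and 4.10 in octanol GFP+ arrays against 4.95, 4.53, 4.10 and 4.65 in octanol GFP- arrays. After vehicle it had 3.76, 3.78, 3.73 and 3.66 in GFP+ arrays against 4.89, 4.88, 4.0 and 4.07 in GFP- arrays. Its groups overlapped after octanol only. No fold is given for either, and Oas1a, one of a cluster of close copies, and Oasl1 were not above background.

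The ISG15 system and several bright members did not pass. Isg15, a ubiquitin-like modifier and one of the most inducible interferon targets, had means of 5.37 and 5.20 log2 in octanol and vehicle GFP+ arrays, against 5.83 and 5.70 in the GFP- arrays of the same exposures. It was above background in 1 of 16 arrays, although its promoter window carries 3 overlapping ISRE cores. Usp18, which removes ISG15 and damps the receptor, ranged from 6.72 to 7.69 and differed by 0.07 (adjusted p = 0.759) and 0.02 (adjusted p = 0.924). Parp14, an ADP-ribosyltransferase, differed by 0.42 (adjusted p = 0.0899) and 0.45 (adjusted p = 0.0718). Rtp4, whose family helps receptors reach the cell surface, differed by -0.51 (adjusted p = 0.0886) and -0.05 (adjusted p = 0.884).

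Cmpk2, a nucleotide kinase of mitochondria that neighbours Rsad2 on chromosome 12, did not pass on the signals as deposited. It measured 13.29, 13.20, 13.20 and 13.33 log2 in octanol GFP+ arrays, against 13.04, 13.21, 13.25 and 13.11 in octanol GFP- arrays. The vehicle GFP+ arrays gave 13.17, 13.26, 13.23 and 13.13, against 13.06, 13.27, 13.09 and 13.03 in vehicle GFP- arrays. The groups overlapped, with differences of 0.10 (95% interval -0.11 to 0.32) after octanol and 0.08 (-0.13 to 0.30) after vehicle. The scaling decided its call: with median centring Cmpk2 was higher by 0.38 (adjusted p = 0.00721) after octanol and by 0.42 (adjusted p = 0.00379) after vehicle, and with receptor centring it was lower by -0.39 (adjusted p = 0.0135) after octanol and differed by -0.22 (adjusted p = 0.175) after vehicle.

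The rest of the pathway was counted in lists written with earlier results of these data known. Beside each count stand the shares over all genes: 13.2% lower and 16.7% higher after octanol, and 13.5% and 14.7% after vehicle. The 6 interferon receptor genes were above background in every array: Ifngr1, a chain of the interferon gamma receptor, was lower by -1.49 and -1.63 after octanol and vehicle (adjusted p = 5.97e-05 and 3.25e-05), and Ifnar2 by -0.54 and -0.48. Ifnlr1, the receptor chain for interferon lambda, was higher by 0.65 and 0.53 (adjusted p = 0.00389 and 0.0117), and Ifnar1 did not pass. In all 3 receptor genes were lower and 1 higher after octanol, and 2 lower and 1 higher after vehicle. The 1 higher gene is 16.7% of the list, against 16.7% and 14.7% of all genes. None of the 4 measured kinase and STAT genes (Jak1, Jak2, Tyk2, Stat3) passed after either exposure, with medians of -0.07 and -0.17.

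Of 18 interferon genes, 1 was higher after octanol (5.56%, against 16.7% of all genes) and 3 after vehicle (16.7%, against 14.7% of all genes). None was lower. Of those called after vehicle, Ifnb1 and Ifna7 lay under background in every array and get no fold. Ifna16 was above it in 4 vehicle GFP+ arrays and in no vehicle GFP- array, and was at least 1.16-fold higher. Ifna1, the gene called after octanol, exceeded background in 3 of 4 GFP- arrays, and its difference was at least 1.39-fold. The Ifna genes are close copies of one another, and how far the probes tell them apart was not tested. Sensors and adaptors that lead to interferon were lower in 12 of 16 genes after octanol (13.2% of all genes) and in 11 of 16 after vehicle (13.5%). Tlr7, an endosomal receptor for single-stranded RNA, was lower by -3.33 and -3.35 (adjusted p = 3.10e-06 and 3.03e-06). Sting1, the adaptor for DNA sensing, was at least 2.51-fold and 2.95-fold lower, and Mavs, the adaptor of RIG-I and MDA5, differed by 0.19 and 0.10 (adjusted p = 0.196 and 0.488).

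Negative regulators were higher in 1 of 8 genes after octanol (12.5%, against 16.7% of all genes) and in 0 after vehicle (14.7% of all genes). They were lower in 4 of 8 genes after each exposure (13.2% and 13.5% of all genes). Among the lower ones were Trim30a, at least 2.02-fold and 2.15-fold, and Sirpa, by -1.96 and -2.20. Among 32 other interferon-induced genes, 19 were lower and 4 higher after octanol, and 18 lower and 2 higher after vehicle. Ly6e, a surface protein of many immune cells, was lower by -5.32 and -5.84, Sp100, a nuclear body protein, by -4.89 and -5.10, and Slfn2, a Schlafen gene of leukocytes, at least 17.7-fold and 15-fold. Lgals3bp, a secreted glycoprotein gene, was higher by 0.89 and 0.74 (adjusted p = 1.30e-04 and 4.73e-04), and Ifit1bl2, in the Ifit cluster, by 0.57 and 0.65. Of 10 MHC class I genes, 7 were lower and 1 higher after octanol and 8 were lower after vehicle. B2m, the light chain of MHC class I, was lower by -3.82 and -4.04, and H2-K1 by -3.66 and -3.91.

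**Figure D3:**
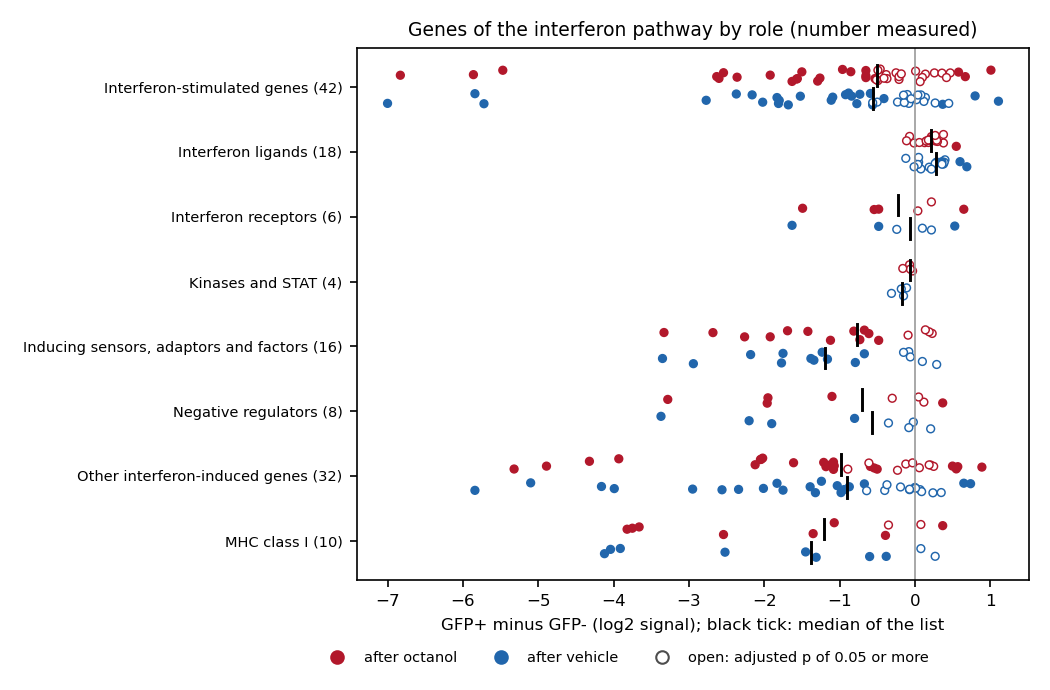
Difference in log2 signal between GFP+ and GFP- cells (x axis) for the interferon-stimulated genes and 7 lists of the same pathway (rows, with the number measured), after octanol (red, upper) and vehicle (blue, lower). Filled points have an adjusted p under 0.05 and ticks are medians. Kinases and STAT cluster near 0, while 12 of 16 inducing sensors, adaptors and factors were lower after octanol (13.2% of all genes).

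Markers of several other cell types moved with these genes, and those of others did not. Of all genes, 13.2% were lower after octanol and 13.5% after vehicle. All 6 neutrophil markers were lower in GFP+ cells after both exposures, with medians of -7.07 and -8.19, and all 9 monocyte and macrophage markers were, with medians of -5.64 and -5.87. The log2 of the summed neutrophil signals was 11.19 to 14.17 in octanol GFP+ arrays against 18.83 to 19.50 in octanol GFP- arrays, and 9.87 to 11.42 in vehicle GFP+ arrays against 18.50 to 19.21 in vehicle GFP- arrays. For monocytes and macrophages it was 10.49 to 12.27 in octanol GFP+ arrays against 16.69 to 17.63 in octanol GFP- arrays, and 10.47 to 11.03 in vehicle GFP+ arrays against 16.69 to 17.39 in vehicle GFP- arrays. All 3 B cell markers were lower after both exposures, and of 6 T and NK cell markers 5 were lower after octanol and 6 after vehicle. Of 4 plasmacytoid dendritic cell markers, 2 were lower after octanol and 3 after vehicle (medians -0.55 and -0.88). Each neutrophil marker was above background in some GFP+ arrays. So was every monocyte and macrophage marker except Ccr2, which was in none. The markers' part in the differences of interferon-stimulated genes was not tested.

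Outside blood cells, all 6 microvillar cell markers (medians -2.93 and -2.80) and all 6 immature neuron markers (medians -2.74 and -3.30) were lower in GFP+ cells too. All 3 dividing cell markers were lower after both exposures (medians -2.59 and -2.71), as were 3 of 5 sustentacular markers (medians -0.88 and -0.98). Endothelial markers had medians of -0.02 and 0.10, with 1 of 5 lower after each exposure and 1 higher after octanol. Of 4 fibroblast markers none passed after octanol and 1 was lower after vehicle (medians -0.41 and -0.13). Of 4 horizontal basal cell markers 1 was lower after each exposure and 1 higher after octanol (medians 0.16 and 0.04). In such short lists 1 call already makes 20% or 25%, against 13.2% and 13.5% of all genes lower. Of 10 mature neuron markers, 4 were higher after each exposure (16.7% and 14.7% of all genes) and none was lower, with medians of 0.28 and 0.25.

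The octanol GFP+ arrays of pools 3 and 4 carried more of the neutrophil marker signal, at 12.98 and 14.17 against 11.19 and 11.24 in the other 2. This was not particular to neutrophils. The summed monocyte and macrophage signal was 12.07 and 12.27 there, against 10.49 and 10.63. The sustentacular signal was 16.68 and 15.91, against 15.34 and 15.24, while the mature neuron signal was 20.55 and 20.55, against 20.62 and 20.53. Ifitm6 and Ifitm2 were also highest in those arrays, and so was the neutrophil gene S100a8, at 7.68, 7.78, 10.01 and 10.78. Without pools 3 and 4, a choice made after seeing the data, Ifitm6 differed by -7.67, Ifitm2 by -6.08 and Ifitm3 by -6.14 after octanol. These gaps were larger than with all pools, but the pools left out held the highest octanol GFP+ values of each gene. The widening thus follows from which pools were dropped. Ifit1 differed by 1.05 (limma adjusted p = 0.00572). With fewer arrays, 4 octanol calls no longer passed although their differences were about as large or larger. They were -1.15 for Irf8 (-0.96 with all pools), -0.85 for Oasl2 (-0.65), -0.63 for Gbp3 (-0.65) and 0.64 for Ifit2 (0.58).

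Octanol changed no interferon-stimulated gene past the threshold. Within GFP+ cells 0 of 42 members passed in limma (0% of all genes, smallest adjusted p of 1 among members), within GFP- cells 0 (0% of all genes, smallest 0.982), and 0 for the effect of octanol on the difference between fractions (0% of all genes, smallest 0.998). At an unadjusted p under 0.05 there was 1 member within GFP+ cells (2.38%, against 3.73% of all genes), 1 within GFP- cells (2.38%, against 4.58%) and 2 for the fraction difference (4.76%, against 4.54%). No member was without overlap between exposures in either fraction, against 2.21% of all genes in GFP+ cells and 2.57% in GFP- cells. Median differences of the members were 0.01 and 0.03 log2.

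In GFP+ cells, the estimates ran from -0.33 (Rtp4) to 0.65 (Ifitm6), and 39 of 42 members had a 95% interval within 1 log2 unit of 0. The widest intervals reached -1.18 and 1.65. In GFP- cells they ran from -0.34 (Iigp1) to 0.69 (Ifitm1), and 40 of 42 intervals lay within 1 unit. For those members the intervals hold no change beyond 2-fold in either direction, and smaller changes within them remain possible.

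**Figure D4:**
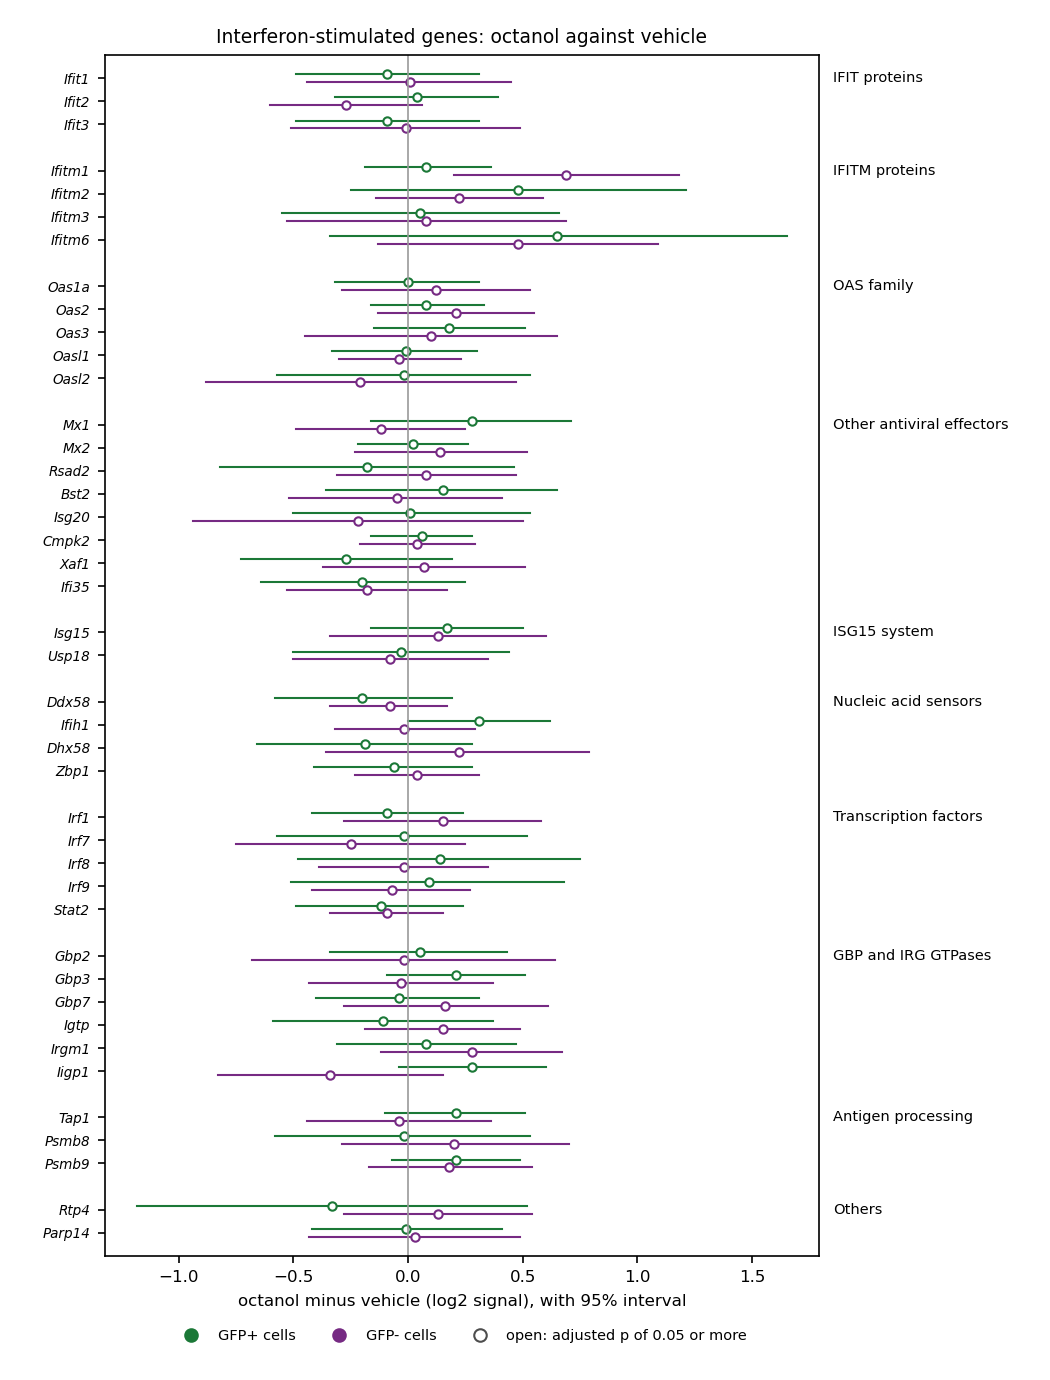
Difference in log2 signal between octanol and vehicle (x axis, with 95% interval) for each of 42 interferon-stimulated genes, within GFP+ cells (green) and within GFP- cells (purple); open points have an adjusted p of 0.05 or more, which is all of them. Ifitm1 in GFP- cells (0.69) and Ifitm6 in GFP+ cells (0.65) lie farthest to the right.

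The members with the smallest p are given by rule. Ifitm1 in GFP- cells, with 10.33, 9.49, 9.33 and 9.98 log2 in octanol arrays against 8.90, 9.15, 8.92 and 9.41 in vehicle arrays, differed by 0.69 (95% interval 0.20 to 1.18, limma adjusted p = 0.982). The groups overlapped, and in GFP+ cells its difference was 0.08 (-0.19 to 0.36), so its fraction difference moved by -0.61 (limma adjusted p = 0.998). Ifih1 in GFP+ cells differed by 0.31 (95% interval 0.00 to 0.62, limma adjusted p = 1), with 9.34 to 9.71 in octanol arrays against 8.99 to 9.44 in vehicle arrays. Psmb9 in GFP+ cells differed by 0.21 (-0.07 to 0.49), Ifit2 in GFP- cells by -0.27 (-0.60 to 0.06) and Ifitm6 in GFP- cells by 0.48 (-0.13 to 1.09).

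Iigp1, an IRG GTPase that attacks parasite vacuoles, lay under background in all arrays, with 5.58, 5.60, 5.58 and 5.70 log2 in octanol GFP+ arrays and 4.61, 5.23, 5.43 and 5.30 in octanol GFP- arrays. It had 5.0, 5.23, 5.64 and 5.48 in vehicle GFP+ arrays and 5.26, 5.98, 5.13 and 5.56 in vehicle GFP- arrays. Its fraction difference moved by 0.62 (limma adjusted p = 0.998), with no fold since no array is above background. Octanol GFP+ arrays of pools 3 and 4 held the higher neutrophil, monocyte and sustentacular marker signals given above. Between exposures in GFP+ cells Ifitm6 differed by 0.65 (-0.34 to 1.65, adjusted p = 1). Without pools 3 and 4 no member passed for octanol within GFP+ cells or for the fraction difference.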

How the data were processed

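The deposited values are log2 signals per probe set, which the authors made with Affymetrix Expression Console, per the submitters' processing notes. The sources used here give neither its version nor its settings, and 50 to 100 ng of total RNA went into each labelling, per the labels' protocols. Signals lay between 2.22 and 18.70 log2 (array medians between 7.42 and 7.70) and received no further scaling, so differences in scaling between fractions remain in them.

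Probe sets were named from GEO's platform annotation, with symbols updated by Entrez number to RefSeq (GRCm38.p6). Of 28846 probe sets, 19572 had 1 gene symbol, and the one with the highest mean was kept per gene (19505 genes, 67 left out). All 42 members came from single probe sets.

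Fits used limma 3.58.1 in R 4.3.3 (lmFit and eBayes, 2-sided), with Benjamini-Hochberg adjustment over all genes and a threshold of 0.05. GFP+ against GFP-, and the octanol effect on that difference, were fitted on all 16 arrays together, with a fixed term for each pool. Octanol against vehicle was fitted on the 8 arrays of each fraction. SE is the moderated standard error. The scripts were tested on simulated data.

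That both fractions of 1 exposure and replicate number come from the same mice is inferred: 24 mice in pools of 3 make 8 pools. Residuals of the 2 fractions of a pool correlated at 0.0779 to 0.222 (mean 0.160, 6 of 8 above 0.1), and those of arrays that share only a number averaged 0.129, so the check does not settle the pairing.

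Members, role groups and pathway and marker lists were chosen with earlier results of these data known. Values in every array are given for up to 3 members a role group with the largest called difference after vehicle, for every member called higher, for the 3 with the highest GFP+ means and for the 3 with the smallest p in each octanol comparison. Levels under background in both groups get no fold. The alternatives tried were no block, a random block, other scalings, a filter on dim genes, eBayes with trend, the lowest-mean probe set, left-out pools and a 99th percentile background.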

Additional observations from a re-analysis of the deposited data

Results flagged for a closer look

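Values of 42 members in 4 groups of 4 arrays give 168 groups. In 7 of them 1 array lay far from the other 3, by Dixon's test, and chance flags about 1 in 20 groups. In vehicle GFP+ arrays, Ifit2 in replicate 3 was 11.26 log2 with the others at 10.79 to 10.84. Under background in the same group were Oas2 in replicate 1 (4.38, others 4.20 to 4.23) and Oasl1 in replicate 2 (3.46, others 2.88 to 2.96). Isg15 in vehicle GFP- replicate 1, at 6.33 with the others at 5.41 to 5.56, was its only value above background. In octanol GFP- arrays, Gbp7 in replicate 4 was 8.70 with the others at 7.95 to 8.04. Octanol GFP+ replicate 4 was highest for Iigp1 (5.70, others 5.58 to 5.60) and for Xaf1 (5.98, others 5.31 to 5.39), both under background. That array also had the highest neutrophil marker signal of the GFP+ arrays, 14.17 log2, and the highest monocyte and macrophage signal, 12.27 log2. The part of these signals in the flagged values was not tested.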

How the results depend on the processing

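Scaling changed the counts most. With quantile normalization 5 members and 4286 of all genes were higher after octanol (3 and 3257 as deposited). After vehicle 4 members and 4561 of all genes were higher with it (3 and 2871 as deposited). With arrays centred on their median, 9 members were higher after octanol and 9 after vehicle, and 11401 and 12759 of all genes. With arrays centred on odorant receptors, 1 member was higher after each exposure and 33 were lower after octanol, with 536 and 630 of all genes higher and 8740 and 4387 lower. Receptor centring also turned the sign of Ddx58 (-0.24), Cmpk2 (-0.39, adjusted p = 0.0135), Iigp1 (-0.03) and Ifih1 (-0.13) after octanol, and of Ifit2 (-0.03), Cmpk2 (-0.22) and Ifih1 (-0.26) after vehicle. Median centring turned Iigp1 after vehicle (0.19). The cause was not tested.

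With 1 pool left out, all genes higher numbered 1799 (without octanol replicate 1) to 2680 after octanol, with 1970 without replicate 4, against 3257 with all pools. After vehicle they numbered 1724 (without replicate 4) to 2063, with 1836 without replicate 1. Members lower were 18 to 22 after octanol and 18 to 21 after vehicle. Iigp1 after vehicle ran from -0.36 to 0.06 and Ifih1 from -0.08 to 0.13, changing sign without replicate 2, and Ifih1 also without replicate 3 (-0.03 and -0.08). Without octanol pools 3 and 4, 1585 genes were higher after octanol.

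Without the replicate block, 3 members were higher and 19 lower after octanol, with 2806 of all genes higher and 2474 lower. After vehicle 2 members were higher and 20 lower, with 2456 of all genes higher and 2535 lower. Oasl2 lost both calls in that setting (limma adjusted p = 0.123 and 0.0511). With the pool as a random block, 4 members were higher and 19 lower after octanol, and 3 higher and 23 lower after vehicle: after octanol Ifih1 passed (adjusted p = 0.0311) and Oasl2 did not (adjusted p = 0.0678). With the replicate number as a block, octanol against vehicle gave 0 members in either fraction. eBayes with trend and robust settings called 1 gene, no member, for the octanol effect on the fraction difference. In all other settings that was 0. The lowest-mean probe set could not change the values of any member, since all came from single probe sets. It still counts among the alternative settings given for Irf9 and Oasl2. Background at the 99th percentile left 20, 25, 19 and 25 members above it in GFP+ and GFP- arrays after octanol and in GFP+ and GFP- arrays after vehicle. Signals near background limit 11 members that failed the filter of 4 arrays.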
